A study of Mus musculus with 2 samples.

Results

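The genes of the NF-κB core were compared between cultured hepatocytes of control and *Drp1*LiKO mice: the 5 Rel/NF-κB subunits *Nfkb1*, *Nfkb2*, *Rela*, *Relb* and *Rel*, the IκB proteins *Nfkbia*, *Nfkbib*, *Nfkbie* and *Nfkbiz*, and the feedback inhibitor *Tnfaip3*. Every transcript probe of the array that carries 1 of these 10 gene names was taken, which gave 20 probes among 56605, or 10 genes among 37074 gene names. Of these probes 18 were well above background on both arrays. The other 2, the dimmer probe of *Rel* and the dimmest probe of *Nfkbiz*, were not well above background on either array, so all 10 genes were measured by at least 1 probe.

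*Drp1*LiKO cells carried *Alb-Cre* Tg/+ and *Drp1* flox/flox, so that Cre under the albumin promoter, which is active in hepatocytes, removes dynamin-related protein 1 (DRP1), a GTPase that divides mitochondria. Control cells came from *Drp1* flox/flox littermates, which carry the same floxed alleles without Cre and which the labels list as wild type control. Both were on the C57BL/6 background, and the age of the mice used for the arrays and the number of animals in each culture are not given in the sources used here. Cells were freed by collagenase perfusion, pelleted at low speed, cultured with insulin and serum without any inflammatory stimulus, and harvested 24 h after seeding. RNA of each genotype was hybridized once, with Cy3, to a mouse array of 60-base probes, and the slide and the scan were the same for both. With 1 array per genotype there is no replicate, hence no test and no p-value, and a difference holds for these 2 arrays alone. The targeted gene, listed as *Dnm1l*, had a signal of 8.30 in control against 3.42 in *Drp1*LiKO cells relative to the 75th percentile of its array. This log2 ratio of -1.28 had a Z score of -1.95, just short of the threshold of 2 used throughout, and a dimmer probe, from 0.0729 to 0.0589, had a log2 ratio of -0.31. Whether these probes lie in the deleted part of the gene was not tested.

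NF-κB is a family of dimeric transcription factors. In a resting cell IκB proteins hold most dimers in the cytoplasm. Signals from TNF, IL-1 or Toll-like receptors activate the IκB kinase (IKK) complex, which marks IκB for degradation, and the freed dimers enter the nucleus and bind κB sites. Several of the genes they turn on, *Nfkbia* and *Tnfaip3* among them, encode proteins that shut the pathway off again, so that the mRNA of these genes is often read as an output of the pathway. In liver the pathway protects hepatocytes from death caused by TNF and drives chemokine and acute phase genes, and Kupffer cells, the resident macrophages, use the same genes. The activity of NF-κB itself, which is set largely by protein modification and location, was not measured on the arrays.

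The genes differ in whether κB sequences lie close to their start. RefSeq windows on GRCm38.p6 from 250 bases before to 50 bases after a gene's start were searched on both strands for the κB consensus, a sequence of 10 bases. Windows were at hand for 7 of the 10 genes. The consensus was found for *Nfkb2*, *Rel*, *Nfkbia*, *Nfkbie* and *Tnfaip3*, 5 of 7, and was not matched by these letters in the windows of *Rela* and *Nfkbib*. Among all 27025 genes with such a window, 5.14% held it. The windows printed here are those of *Nfkbia*, the gene with the lowest ratio, of *Tnfaip3*, the other classical feedback gene, of *Nfkb2*, as the subunit gene with the consensus in all 3 of its windows, and of *Nfkbib*, the gene with the highest ratio by its brightest probe, for contrast. Each runs 5′ to 3′ on the strand of the gene, in lower case, with each match to the consensus, on either strand, in capitals.
*Nfkbia*, chr12:55492598-55492897, minus strand: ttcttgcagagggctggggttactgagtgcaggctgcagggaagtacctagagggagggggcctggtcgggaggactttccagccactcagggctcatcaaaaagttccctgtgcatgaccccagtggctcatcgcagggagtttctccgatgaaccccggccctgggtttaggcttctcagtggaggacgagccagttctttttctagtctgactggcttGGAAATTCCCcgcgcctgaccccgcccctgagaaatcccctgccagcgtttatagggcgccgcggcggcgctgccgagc
*Tnfaip3*, first window, chr10:19015361-19015660, minus strand: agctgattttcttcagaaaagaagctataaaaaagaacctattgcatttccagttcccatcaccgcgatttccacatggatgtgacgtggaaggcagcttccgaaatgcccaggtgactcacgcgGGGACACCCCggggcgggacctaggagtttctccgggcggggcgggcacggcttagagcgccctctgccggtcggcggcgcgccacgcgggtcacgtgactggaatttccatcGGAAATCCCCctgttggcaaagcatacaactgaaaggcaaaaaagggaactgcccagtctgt
*Nfkb2*, first window, chr19:46304487-46304786, plus strand: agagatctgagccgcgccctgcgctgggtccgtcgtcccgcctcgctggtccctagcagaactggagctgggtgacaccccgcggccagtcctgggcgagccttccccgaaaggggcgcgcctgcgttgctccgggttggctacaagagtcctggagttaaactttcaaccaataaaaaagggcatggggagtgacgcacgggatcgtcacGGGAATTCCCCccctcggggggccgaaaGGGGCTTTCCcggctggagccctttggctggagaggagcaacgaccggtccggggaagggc
*Nfkbib*, chr7:28766595-28766894, minus strand: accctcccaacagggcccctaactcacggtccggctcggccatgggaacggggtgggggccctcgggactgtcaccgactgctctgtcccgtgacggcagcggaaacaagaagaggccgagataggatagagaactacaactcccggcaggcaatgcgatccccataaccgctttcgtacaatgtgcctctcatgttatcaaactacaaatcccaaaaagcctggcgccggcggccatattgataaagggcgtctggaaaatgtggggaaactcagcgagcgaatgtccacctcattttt

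In *Nfkbia* the match began 29 bases before the start and lay on the strand opposite to the gene. The first window of *Tnfaip3* held 2 separate matches, 125 and 12 bases before the start, and its second window held 0. In the first window of *Nfkb2*, overlapping matches on both strands merge into 1 stretch that began 39 bases before the start, and another match began 11 bases before it. A match is a description of the letters and does not show that a factor binds there.

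*Nfkbia* and *Nfkbib*, the 2 IκB genes with the lowest and the highest ratio by the brightest probe, were read by probes whose genomic coordinates span more bases than the 60 of the probe, so that each crosses at least 1 intron and reads spliced RNA. They are printed in the direction of the mRNA, with mm9 coordinates as in the array files, both on the minus strand.
*Nfkbia* (NM_010907), chr12:56590945-56591440: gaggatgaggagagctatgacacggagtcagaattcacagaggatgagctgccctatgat
*Nfkbib*, brightest probe (NM_010908), chr7:29544167-29544848: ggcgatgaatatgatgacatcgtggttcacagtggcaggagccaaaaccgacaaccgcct
*Nfkbib*, other probe (NM_001306222), chr7:29546905-29547054: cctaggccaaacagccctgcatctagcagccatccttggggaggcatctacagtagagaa

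Signals are given relative to the 75th percentile of the same array, so that the quotient of both values is the fold difference. Each probe was a single spot on each array. The only error at hand is therefore the noise expected between single spots, taken from probes printed 10 times, which holds no difference between cultures. A probe's level is not set against that of another probe, since probes bind their targets with different strength. Where a gene had several probes, the brightest stood for the gene. A difference is called past the threshold when the Z score of its log2 ratio (*Drp1*LiKO minus control), taken over all 30275 detected probes, was 2 or more in either direction, which was a log2 ratio of 1.30 or -1.31. Of all 20165 detected genes, 6.3% passed.

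None of the 10 genes passed this threshold. Expression of the 5 subunit genes was slightly lower in *Drp1*LiKO cells, that of *Nfkbia* was 1.96-fold lower, that of *Tnfaip3* differed by less than the spot noise, and *Nfkbib* and *Nfkbiz* were higher. By the brightest probe 8 of 10 genes had a log2 ratio below 0, where 55.5% of all detected genes did. A difference of at least 1.5-fold was seen in 1 of the 10, *Nfkbia*, and in 20.6% of all genes: 0 of the 10 were higher by this rule, where 10.3% of all genes were, and 1 was lower, where 10.3% were. The median log2 ratio of the 10 genes was -0.27, beside -0.05 for all genes, and their median size regardless of direction was 0.37, beside 0.24. As the arrays hold RNA of whole cultures, fewer cells of a type and less RNA per cell cannot be told apart in any of these differences.

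**Figure D1:**
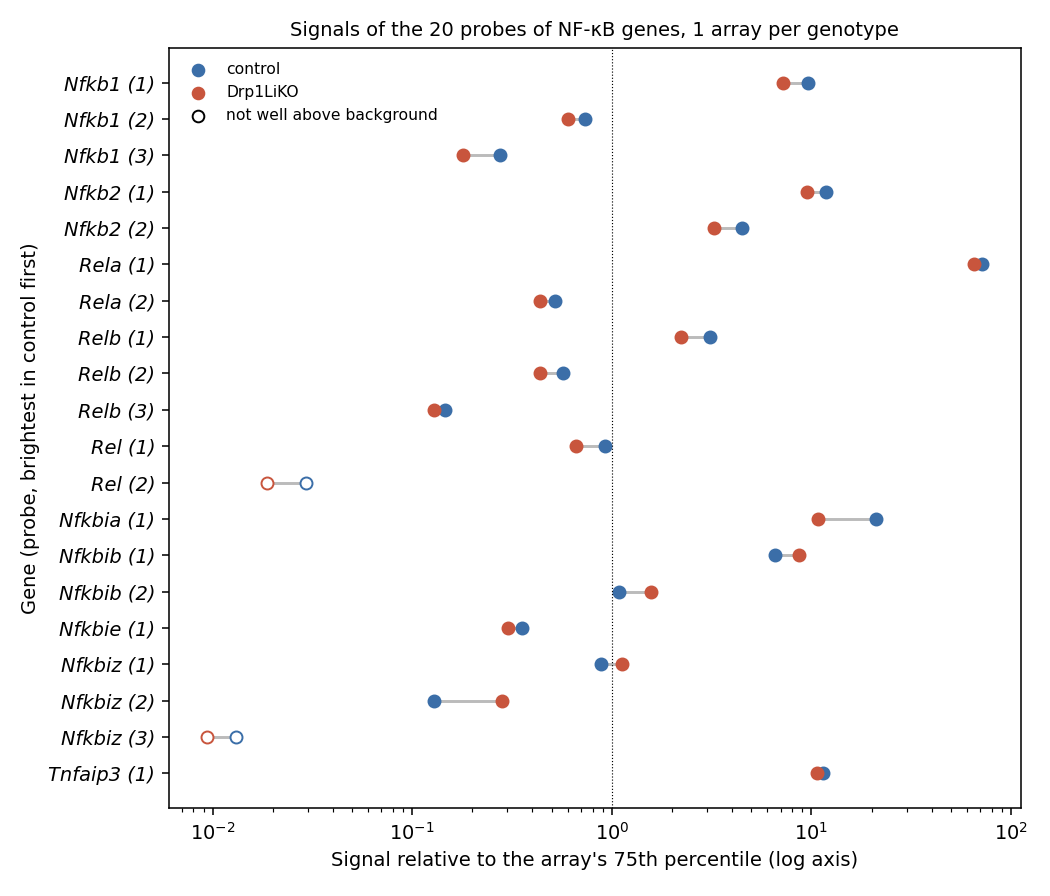
Signal of each probe in control (blue) and *Drp1*LiKO (red) cells relative to the 75th percentile of its array, on a log axis, 1 array per genotype; open symbols were not well above background. Red lies left of blue for all 11 detected subunit probes and for *Nfkbia*, where 21.1 stands against 10.8, and right of blue for the detected probes of *Nfkbib* and *Nfkbiz*; levels of different probes are not comparable.

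*Rela* encodes p65, the subunit with a strong transactivation domain in the common p50-p65 dimer. Its brightest probe had a signal of 71.7 in control against 64.9 in *Drp1*LiKO cells, that is, a log2 ratio of -0.14 with a spot noise of 0.072. Its other probe went from 0.521 to 0.436, a log2 ratio of -0.26 with a noise of 0.20. Both differences were within 2 times the spot noise, so *Rela* was the subunit gene with the smallest difference by its brightest probe and the least sure direction.

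*Nfkb1* encodes p105, the precursor of p50. Its brightest probe had a signal of 9.56 in control against 7.21 in *Drp1*LiKO cells, 1.33-fold lower. The other probes went from 0.737 to 0.605 and from 0.275 to 0.180. All 3 probes, at log2 ratios of -0.41, -0.28 and -0.61, were lower by more than 2 times the spot noise of 0.10, 0.13 and 0.23. They lie at 3 separate places of the gene on chromosome 3, so that the lower signal in the main processing did not rest on 1 stretch of the transcript. In the authors' normalized values the 3 probes disagreed, at -0.19, 0.02 and -1.82.

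*Nfkb2* encodes p100, the precursor of p52 in the alternative pathway and an inhibitor of RelB. It had signals of 11.8 and 9.53 at the brightest probe and of 4.50 and 3.25 at the other, log2 ratios of -0.30 and -0.47. *Relb*, the main partner of p52, went from 3.09 to 2.23 at its brightest probe, a log2 ratio of -0.47 with a spot noise of 0.12. Its dimmer probes, from 0.566 to 0.434 and from 0.146 to 0.129, were lower by less than 2 times their noise. *Rel*, which encodes c-Rel, a subunit best known from lymphoid and myeloid cells, went from 0.929 to 0.665, a log2 ratio of -0.48 with a noise of 0.13.

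All 11 detected subunit probes thus had a log2 ratio below 0, from -0.61 to -0.14 with a median of -0.38, and 7 of them were lower by more than 2 times the spot noise. Among all detected probes of the array 53.6% had a log2 ratio below 0. The share of them past 2 times the spot noise was not computed, so the count of 7 cannot be set against all probes. The probes of 1 gene share its transcripts and all probes share the same 2 RNA samples, so these 11 values are not independent. None reached a Z score beyond -0.92.

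*Nfkbia* encodes IκBα, which is resynthesized within the hour after NF-κB is activated and returns dimers to the cytoplasm. Its only probe had a signal of 21.1 in control against 10.8 in *Drp1*LiKO cells, that is, a log2 ratio of -0.97, nearly 10 times the spot noise of 0.099. Only 4.88% of all detected genes had a lower ratio. Its Z score was -1.47. With normexp background correction the Z score was -2.16, with a robust Z score -2.60 and among probes of similar signal -2.50, so that *Nfkbia* passed the threshold in these 3 settings, in which 6.33%, 15.7% and 6.79% of all genes did.

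*Nfkbib* encodes IκBβ, which is not a classical feedback target, and it differed in the other direction. The brightest probe went from 6.58 in control to 8.69 in *Drp1*LiKO cells, 1.32-fold higher, and the other from 1.09 to 1.57, 1.45-fold higher. Both log2 ratios, 0.40 and 0.53, were more than 3 times their spot noise of 0.11 and 0.12, and 84.6% of all genes had a ratio below that of the brightest probe. *Nfkbie*, which encodes IκBε, a slower inducible inhibitor, was dim, with signals of 0.353 and 0.302. Its log2 ratio of -0.23 was within 2 times a noise of 0.22.

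*Nfkbiz* encodes IκBζ, a nuclear IκB protein that helps to turn on a secondary set of genes, *Lcn2* and *Il6* among them, rather than holding dimers in the cytoplasm. Its brightest probe went from 0.885 to 1.12, a log2 ratio of 0.34 with a noise of 0.13. Its second probe, near the dim end of the array, went from 0.129 to 0.283, a log2 ratio of 1.14 with a noise of 0.23 and a Z score of 1.75. Both were higher in *Drp1*LiKO cells, but the size differed by 0.79 between probes, more than 2 times their joint spot noise. With normexp correction the probes were at 0.30 and 0.47, and the second probe passed the threshold with no filter on dim probes and with probes well above background on both arrays (Z scores of 2.57 and 2.09). *Tnfaip3* encodes A20, a ubiquitin-editing enzyme that stops signals on their way to IKK. With signals of 11.4 and 10.7, its log2 ratio of -0.09 was below the spot noise of 0.11.

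In order of log2 ratio by the brightest probe, the genes were *Nfkbia*, *Rel*, *Relb*, *Nfkb1*, *Nfkb2*, *Nfkbie*, *Rela*, *Tnfaip3*, *Nfkbiz* and *Nfkbib*. Only 2 of the 9 gaps between neighbours were larger than 2 times their joint spot noise: *Nfkbia* lay 0.49 below *Rel* (noise 0.16), and *Tnfaip3* lay 0.43 below *Nfkbiz* (noise 0.17). The other gaps were at most 0.10. In the main processing these gaps set off *Nfkbia* at the low end and *Nfkbiz* with *Nfkbib* at the high end. The 7 genes between, from -0.48 to -0.09, were a chain of close neighbours rather than a group of like values. The ends of this chain, *Rel* (noise 0.13) and *Tnfaip3* (noise 0.11), were apart by more than 2 times their joint spot noise. This division rests on a noise that holds no difference between cultures. It was not kept in the authors' normalized values, where *Nfkbie* was at -0.63, *Nfkbiz* at 0.09 and *Nfkbib* at 0.70. The feedback genes *Nfkbia* and *Tnfaip3*, both with the κB consensus near their start, were 0.88 apart.

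**Figure D2:**
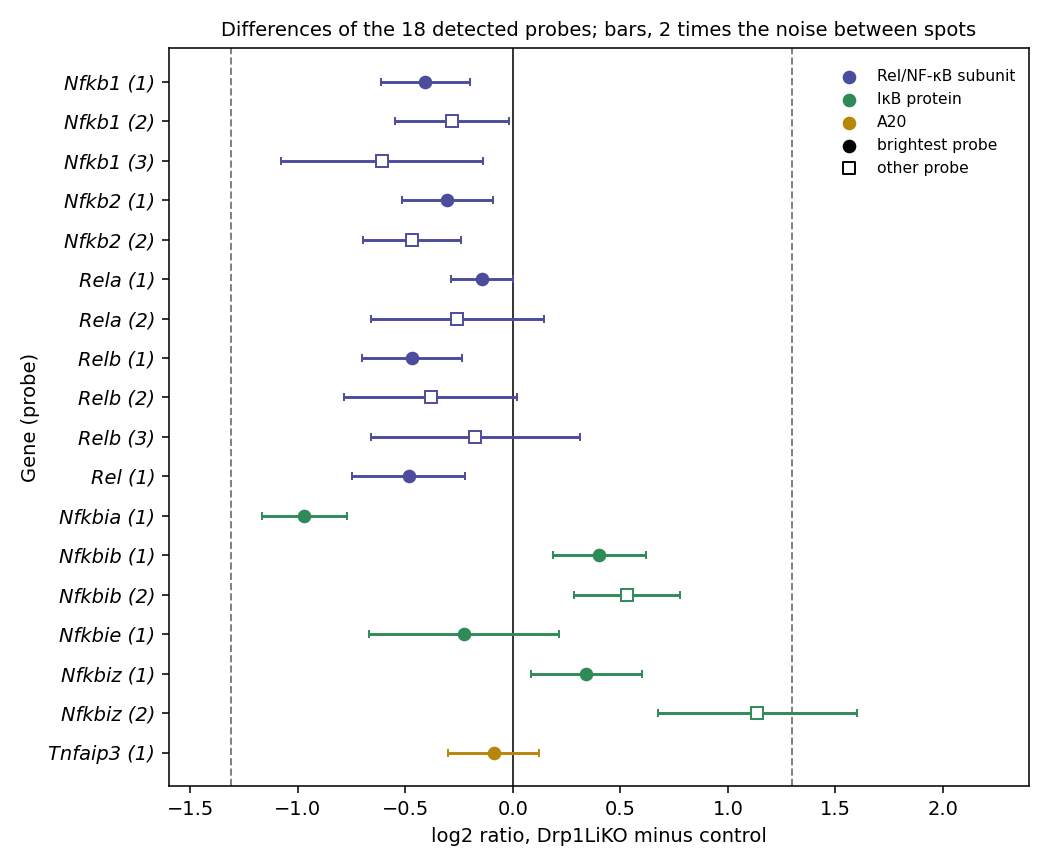
Log2 ratio (*Drp1*LiKO minus control) of the 18 detected probes, with bars of 2 times the noise expected between spots, which holds no difference between cultures; circles, brightest probe of a gene; squares, other probes; dashed lines, ratios at a Z score of 2 (1.30 and -1.31). No probe lies beyond the dashed lines, and *Nfkbia* at -0.97 lies apart from the subunit probes at -0.61 to -0.14.

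The direction of all 10 genes was kept with quantile or spike-in scaling, normexp correction, the authors' normalized values and the median of a gene's probes. The other rules for dim or outlier spots could hardly move these genes, since all were well above background on both arrays and each probe was 1 spot. *Nfkbia* stayed between -0.97 and -0.90. *Nfkbib* ranged from 0.40 to 0.70, *Nfkbiz* from 0.09 to 0.74, and *Rela*, the closest of the subunit genes to 0, from -0.20 to -0.04. Of the 11 subunit probes, all were below 0 in each setting that keeps probes apart, except for the authors' normalized values, where 10 were and the probes ranged from -1.82 to 0.02. The lowest of these was the dimmest probe of *Nfkb1*, which passed the threshold there with a Z score of -2.49, against a log2 ratio of -0.61 from the array signals. The probe above 0 was another probe of *Nfkb1*.

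**Figure D3:**
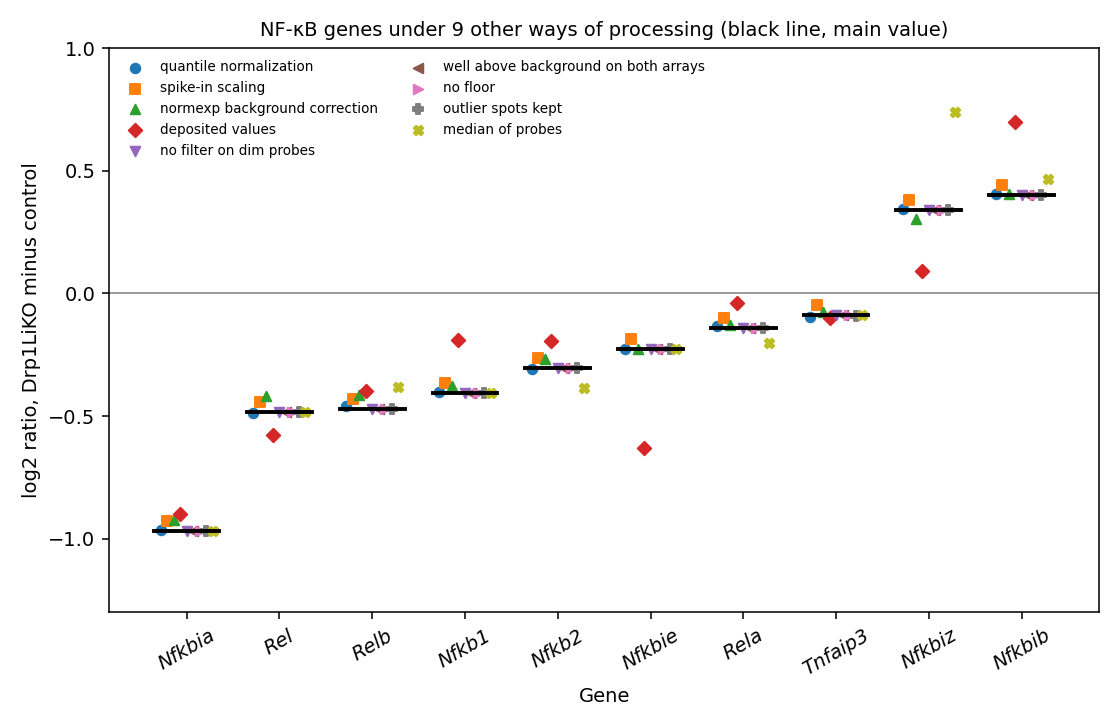
Log2 ratio (*Drp1*LiKO minus control) of each gene in the main processing (black line) and under 9 alternatives (symbols). Each gene keeps its side of 0, and the authors' normalized values (red diamonds) move several genes, such as *Nfkbie* from -0.23 to -0.63, while the median of probes moves *Nfkbiz* furthest, from 0.34 to 0.74.

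The genes upstream of these factors were read from a list of 38 other pathway genes, of which 37 were detected on both arrays and *Tnip3* was not well above background. None passed the threshold, where 6.3% of all genes did, and their median log2 ratio of -0.08 lay close to the -0.05 of all genes. Of the 37 genes 21 (56.8%) were lower and 16 higher, beside 55.5% lower among all genes, and 3 (8.11%) differed by at least 1.5-fold, beside 20.6%. In other settings at most 3 of these genes passed, *Rnf31*, *Traf1* and *Bcl3*, all 3 of them with a robust Z score.

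The IKK complex differed little at the brightest probes. *Chuk* (IKKα) went from a signal of 16.4 in control to 16.9 in *Drp1*LiKO cells, *Ikbkb* (IKKβ) from 3.86 to 3.46 and *Ikbkg* (NEMO, the regulatory subunit) from 3.01 to 3.16. A dimmer probe of *Ikbkb* had a log2 ratio of 0.77, so its probes disagree. Among 19 adaptors and upstream kinases 12 were lower and 7 higher. *Traf1*, a TRAF adaptor that NF-κB itself induces, had the lowest ratio of the list, from 0.297 to 0.122, 2.43-fold lower with a Z score of -1.96. *Map3k14* (NIK, the kinase of the alternative pathway) had a log2 ratio of -0.58, with another probe at 0.44, and *Myd88*, the adaptor of Toll-like and IL-1 receptors, one of -0.45.

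*Rnf31* (HOIP), the catalytic subunit of the linear ubiquitin ligase, had the highest ratio of the list, 0.89, from a signal of 4.75 to 8.79, whereas its partners *Rbck1* and *Sharpin* were both at -0.08. *Bcl3*, a nuclear IκB protein that works with p50 and p52, went from 36.1 to 20.2, 1.78-fold lower. The other nuclear IκB genes were *Nfkbid*, with probes at -0.28 and -1.25, and *Nfkbil1* at 0.05. Of 9 detected negative regulators 5 were higher and 4 lower, from -0.46 for *Nkrf* to 0.29 for *Tnip1*, which encodes an A20-binding protein, and none differed by 1.5-fold at its brightest probe. *Commd1*, at -0.16, had another probe at -1.87. In the other direction, *Zc3h12a*, at -0.15, had another probe at 0.68, and *Irak3*, at 0.07, had another at 0.60.

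Genes known as NF-κB targets differed far more than the NF-κB genes themselves, and in both directions. Of 34 targets in the list 30 were detected, 25 of them well above background in control against 29 in *Drp1*LiKO cells. Of all 20165 detected genes, 18331 were well above background in control against 19569 in *Drp1*LiKO cells, so more were detected there in general. *Il12b*, *Csf3* and *Sele* were not well above background on either array, and no probe carried the name *Bcl2a1a*. The threshold was passed by 12 of the 30 (40.0%), 8 higher and 4 lower in *Drp1*LiKO cells, where 3.5% of all genes were higher and 2.81% lower by this rule. A difference of at least 1.5-fold was seen in 17 (56.7%), beside 20.6% of all genes. The median log2 ratio was nevertheless -0.14, since 18 targets were lower and 12 higher, while the median size was 0.81, beside 0.37 for the NF-κB genes and 0.24 for all genes. The list was chosen from textbook targets with earlier results of these data known. Its counts are therefore a description with no test, and their excess over all genes is no evidence for the list.

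**Figure D4:**
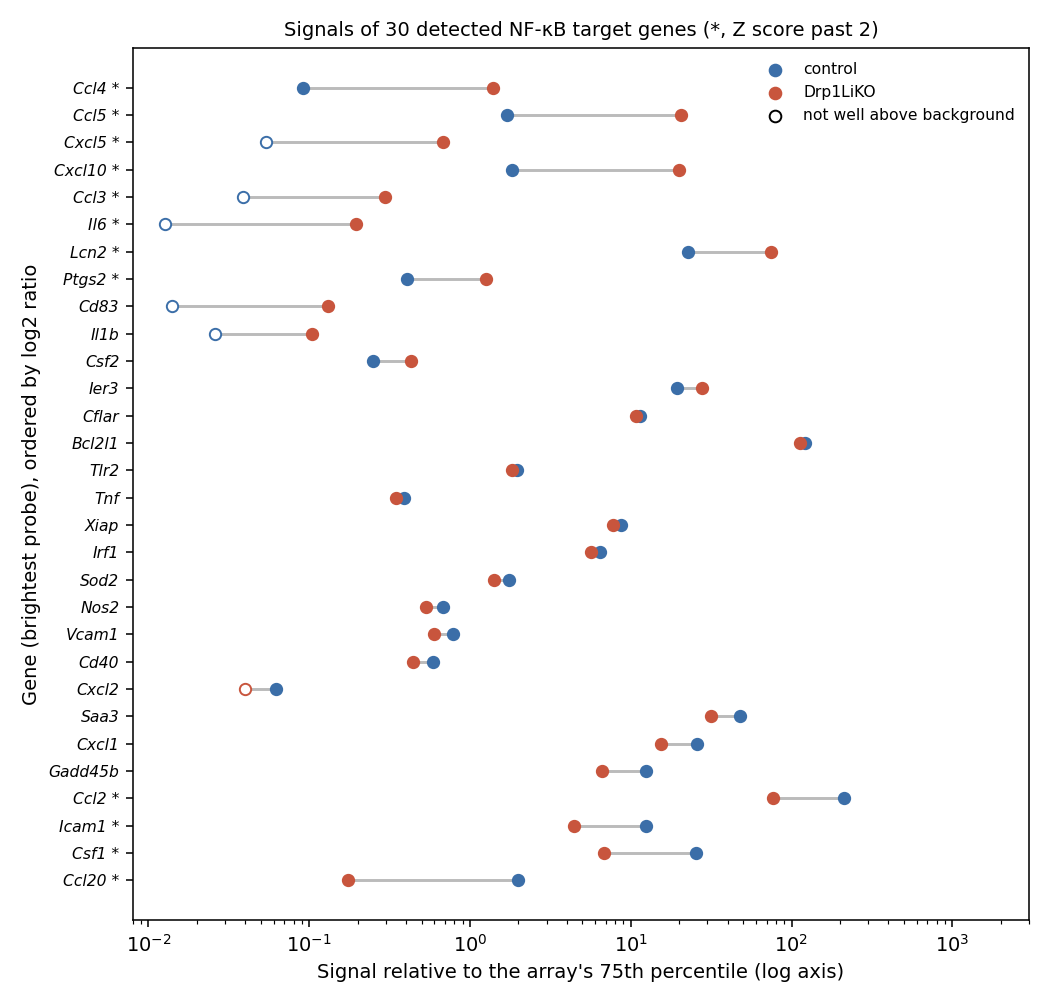
Signal of the brightest probe of 30 detected NF-κB target genes in control (blue) and *Drp1*LiKO (red) cells relative to the 75th percentile of the array, log axis, ordered by log2 ratio with the highest on top; open symbols were not well above background, and an asterisk marks a Z score of 2 or more in either direction. The 8 marked genes at the top are higher and the 4 marked genes at the bottom lower in *Drp1*LiKO cells.

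Chemokines held 7 of the 12 targets past the threshold, among 9 detected. *Ccl4* and *Ccl5*, which draw T cells and macrophages, went from 0.0920 to 1.39 and from 1.71 to 20.5, log2 ratios of 3.92 and 3.59. *Cxcl10*, which draws activated T cells and responds to interferon as well as to NF-κB, went from 1.83 to 19.8, a log2 ratio of 3.44, although its other probe had one of 0.51. *Cxcl5*, a neutrophil chemokine, and *Ccl3* were not well above background in control cells and were at least 11.6-fold and at least 5.12-fold higher in *Drp1*LiKO cells. These bounds hold for the main processing. With normexp correction the log2 ratios of *Cxcl5* and *Ccl3* were smaller, 1.72 and 0.95, and both still passed.

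Other chemokines lay on the opposite side. *Ccl20*, the ligand of CCR6, went from 2.00 in control to 0.174 in *Drp1*LiKO cells, 11.5-fold lower. *Ccl2* (MCP1), the main monocyte chemokine, went from 212 to 76.4, 2.77-fold lower, and *Cxcl1* from 26.0 to 15.5, a log2 ratio of -0.75 that did not pass. *Cxcl2* was dim, detected in control cells alone and at least 1.47-fold lower in *Drp1*LiKO cells, but lay on the other side of 0, at 0.11, in the authors' normalized values.

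Of 5 detected cytokine genes, *Il6* was at least 3.37-fold higher in *Drp1*LiKO cells and not well above background in control, and *Csf1*, the macrophage growth factor, was lower, from 25.4 to 6.78, 3.75-fold. *Il6* did not pass with normexp correction (log2 ratio of 0.63), in the authors' normalized values (0.83) or with a Z score within classes of similar signal, and *Csf1* did not with the median of its probes (-1.20). The probes of *Tnf* disagreed: the brightest went from 0.388 to 0.344, a log2 ratio of -0.17, and the other had a log2 ratio of -2.22. *Il1b*, not well above background in control, was at least 1.78-fold higher and did not pass. The adhesion gene *Icam1* went from 12.5 to 4.46, 2.81-fold lower, while *Vcam1* had probes at -0.41 and 0.86.

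Survival genes, through which NF-κB protects hepatocytes, did not pass the threshold in the main processing. *Bcl2l1*, *Cflar* and *Xiap*, all inhibitors of cell death, had log2 ratios of -0.11, -0.07 and -0.17. *Gadd45b* went from 12.4 to 6.65, 1.86-fold lower. *Ier3* had a log2 ratio of 0.52, but of -1.15 in the authors' normalized values. Among enzymes and acute phase genes, *Lcn2*, an iron-carrier binding protein made by hepatocytes in inflammation, went from 22.9 to 74.5 with both probes higher, and *Ptgs2* (COX-2) from 0.406 to 1.25, 3.08-fold higher. *Saa3*, *Nos2* and *Sod2* had log2 ratios of -0.58, -0.34 and -0.31. *Irf1* and *Tlr2* were at -0.19 and -0.11, and *Cd83*, not well above background in control, was at least 2.26-fold higher without passing.

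The κB consensus near the start was found in 11 of 25 targets with a RefSeq window, beside 5.14% of all genes. These 11 targets went both ways. *Cxcl10* and *Il6* were higher past the threshold and *Ccl20* and *Csf1* lower past it, whereas *Bcl2l1*, *Cxcl1*, *Cxcl2*, *Ier3*, *Irf1*, *Sod2* and *Tlr2* did not pass. Of the other pathway genes 7 of 34 held it.

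Markers of macrophages, endothelial cells and stellate cells were mostly higher in *Drp1*LiKO cells. Of 16 macrophage markers 14 were detected, 13 of them higher in *Drp1*LiKO cells and 10 past the threshold, with a median log2 ratio of 2.28. Of all genes 55.5% were lower and 3.5% were higher past the threshold. Of the 14 ratios 4 are bounds, since control was not well above background. Their summed relative signal was 28.3 in control against 68.7 in *Drp1*LiKO cells, and the brightest, *Cd68*, went from 7.49 to 27.0. The only lower marker, *Itgam*, went from 13.2 to 10.9 and made up much of the control sum. Of the defining Kupffer cell markers, *Clec4f* was not well above background in control and at least 5.75-fold higher in *Drp1*LiKO cells, *Marco* and *Cd5l* had log2 ratios of 3.45 and 3.05, and *Timd4* was not well above background on either array. All 8 endothelial markers were higher, with a median of 1.60 and summed signals of 13.3 and 23.8. Of 7 detected stellate cell markers 6 were higher, with a median of 1.04. The other marker, *Des*, has no settled direction, as its control signal was raised to the detection limit. Their summed signals were 69.8 and 82.1, of which *Acta2* made up 68.4 and 69.3. The part of these cells in the differences of the NF-κB genes and their targets was not tested.

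Markers of T and NK cells and of neutrophils were mostly not detected, with 2 of 7 and 3 of 8 genes well above background on an array and medians of -0.42 and 0.17. The neutrophil marker *Ly6g*, not well above background in control, was at least 3.72-fold higher in *Drp1*LiKO cells, past the threshold. Among the others *Nkg7*, *Cd8a*, *S100a8* and *S100a9* were not well above background on either array. The 4 detected cholangiocyte markers, 2 higher and 2 lower, had a median log2 ratio of 0.09, from -0.46 to 0.59. Their summed signals were 93.8 in control against 70.0 in *Drp1*LiKO cells. All 13 hepatocyte markers were detected on at least 1 array, which fits the label of the cells. For 1 of them the control signal was raised to the detection limit, so that its ratio is a bound. The median log2 ratio was 0.50, with 10 markers higher and 3 lower. At least 1.5-fold differences were seen in 5 markers, all higher in *Drp1*LiKO cells, and 2 markers were higher past the threshold and 0 lower. Their summed signals were 1735 in control against 1841 in *Drp1*LiKO cells.

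**Figure D5:**
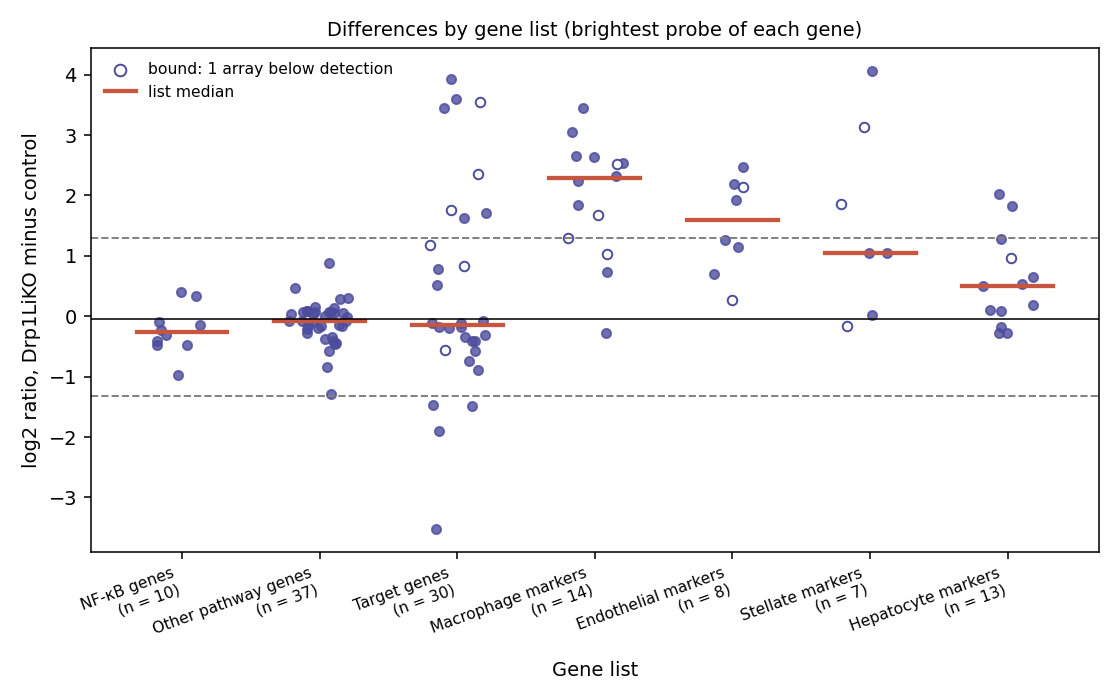
Log2 ratio (*Drp1*LiKO minus control) of the brightest probe of each detected gene by list; open symbols are bounds because 1 array was not well above background, red lines are list medians, the black line is the median of all genes (-0.05) and dashed lines are ratios at a Z score of 2. The NF-κB genes and other pathway genes lie between the dashed lines, the targets spread to both sides of them, and the macrophage markers lie mostly above (median 2.28).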

How the data were processed

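RNA of 1 control and 1 *Drp1*LiKO hepatocyte culture was hybridized to Agilent SurePrint G3 Mouse 8x60K v2 arrays. The authors deposited the scanner output, in which the processed signal is a linear intensity after background subtraction (Agilent Feature Extraction 9.5.1.1 per the submitters' processing notes, another version per the file headers), and a table of intensity values normalized between arrays by a method not named in the sources used here. The *Drp1*LiKO column of that table had a rank correlation of 0.958 with its array across probes, so it served only as an alternative.

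Outlier and control spots were left out, and log2 processed signals were averaged per probe and scaled to the 75th percentile (a signal of 313 in control against 356 in *Drp1*LiKO cells; a set of 7 spike-in probes differed by 0.14 on the log2 scale between arrays, the percentiles by 0.18). Probes were kept where either array read them well above background, and dim signals were raised to the lowest signal well above background on that array (18.2 in control against 15.0 in *Drp1*LiKO cells), so that such ratios are bounds. The bounds hold for the main processing, and with normexp correction such a difference could be smaller. Z scores refer to the 30275 probes kept, at the threshold of 2 that the study names. Spot noise is the root mean square SD of the 8 repeated probes nearest in signal, summed in squares over both arrays. Precision is limited by the number of arrays.

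Genes named were *Dnm1l*, all 10 NF-κB genes with every probe, and the brightest marker of the macrophage and stellate lists. Of the pathway and target lists, those past the threshold, the highest and the lowest were named. So were those whose role was needed to group them or whose probes disagreed. Other markers were named because they define a cell type or differ from their list. No endothelial, cholangiocyte or hepatocyte marker was named. These genes and lists were chosen with earlier results of these data known. The values of 1 marker list are not reported here. Alternatives were quantile and spike-in scaling, normexp with an offset of 50, the deposited table, no filter, only probes well above background on both arrays, no floor, outlier spots kept, the median of a gene's probes, and Z scores that were robust or taken among probes of similar signal in 20 bins. The steps were tested on simulated data whose changes, in bright genes, were larger than any difference of the 10 NF-κB genes. That test therefore does not cover differences of their size. Python 3.11.15, numpy 2.4.6, pandas 2.3.3, matplotlib 3.10.9, R 4.3.3 and limma 3.58.1 were used.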

Additional observations from a re-analysis of the deposited data

How the results depend on the processing

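No paired analysis was possible because each genotype has 1 array, and for the same reason no replicate could be left out. All 10 NF-κB genes kept their direction in all settings, and the median of these genes stayed between -0.30 and -0.19. The number of them past the Z score threshold, 0 in the main processing, was 1 (*Nfkbia*) with normexp background correction, with a robust Z score and with one computed within classes of similar signal. The authors' normalized values moved 6 of them by more than the spot noise, to -0.19 for *Nfkb1*, -0.19 for *Nfkb2*, -0.04 for *Rela*, 0.70 for *Nfkbib*, -0.63 for *Nfkbie* and 0.09 for *Nfkbiz*, and the cause was not tested. With the median of a gene's probes *Nfkbiz* was at 0.74 and the median of the other pathway genes was 0.043 instead of -0.08. Of the targets, 2 instead of 4 were lower past the threshold with the authors' normalized values and with no floor for dim signals, in both cases without *Icam1* and *Ccl2*. With no floor *Lcn2* and *Ptgs2* did not pass, whereas *Il1b* and *Cd83* did. Only 5 instead of 8 were higher with probes well above background on both arrays, because *Cxcl5*, *Ccl3* and *Il6* were then left out. With no filter on dim probes 1952 genes passed and the median of all genes was -0.47, since a probe below both floors then takes their difference as its ratio. With a robust Z score 3165 passed, among them the targets *Il1b*, *Csf2*, *Cd83* and *Gadd45b*. *Cd83* also passed with no filter on dim probes, and *Gadd45b* within classes of similar signal.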
